A study of Mus musculus with 8 samples.

Results

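Messenger RNAs of 9 genes that encode the machinery of transcription elongation were followed in mouse embryonic stem cells (mESCs) after knockdown (KD) of Sox2, hnRNPK or Cdk9. The genes are those of the kinase P-TEFb (Cdk9, Ccnt1 and Ccnt2), of the 7SK small nuclear ribonucleoprotein that holds it inactive (Hexim1, Larp7 and Mepce) and of the super elongation complex that carries it to genes (Aff1, Aff4 and Ell). They were chosen by symbol, as 9 of the 55335 genes in the counts, and all 9 were among the 16504 genes that passed the filter on low counts. Polyadenylated RNA was sequenced from E14 cells, a line of mESCs, in 4 groups of 2 biological replicates. Every group was grown in serum with LIF and the inhibitors CHIR99021 and PD0325901, infected with a lentivirus that expresses a short hairpin RNA (shRNA), and selected with puromycin. The control group carried a scrambled shRNA (genotype label negative control), and the 3 KD groups carried shRNAs against Sox2 (Sox2-KD), Hnrnpk, the gene of hnRNPK (hnRNPK-KD), or Cdk9 (Cdk9-KD). The cells were infected populations, a knockdown leaves part of the mRNA in place, and the shRNA that each library received is not given in the sources used here. Whether the infections were done side by side is not given either, so that p-values measure the spread between these libraries.

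P-TEFb is a pair of the kinase CDK9 and a cyclin T, and it releases RNA polymerase II from its pause close to the start of a gene by phosphorylating the polymerase and the factors DSIF and NELF. Much of the P-TEFb of a cell is held inactive by HEXIM1 on the 7SK RNA, which MEPCE caps and LARP7 protects at its end. The super elongation complex is built on the scaffolds AFF1 or AFF4 and brings P-TEFb together with the elongation factor ELL. In mESCs this machinery serves both highly transcribed genes and genes that are switched on rapidly upon differentiation.

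The sites of the 2 Cdk9 shRNAs are shown because Cdk9 is the only one of the 9 genes that a construct of the study was directed against. Capitals mark the 7 bases that pair with positions 2 to 8, the seed, of a guide strand complementary to the whole site.
CDK9-shRNA1: ggacatgaaggctGCGAATGt
CDK9-shRNA2: gcatgctgtctacTCACTTGa
In GRCm38 the site of CDK9-shRNA1 lies at chr2:32709913-32709933 and that of CDK9-shRNA2 at chr2:32708046-32708066, both on the minus strand. They belong to exons 5 and 7 of the 7-exon transcript ENSMUST00000009699.15, and both are coding sequence. No annotated transcript of another gene held either 21-base site in full. The seed match of CDK9-shRNA1 was present in the longest transcripts of Cdk9 and Aff1 and in none of the other 7 genes, where 4.89% of 16492 tested genes held one. That of CDK9-shRNA2 was present in Cdk9 alone of the 9, where 18.4% of the tested genes held one. A seed match is a match of letters, not a measured target.

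Total counts ranged from 16709201 to 17719366 per library, and within each group the replicates differed beyond counting noise (chi-square per gene from 15.3 to 27.8). All 7 markers of embryonic stem cells were detected in every library, with summed levels from 5786 to 7776 CPM (counts scaled to the size of the library), while the 5 fibroblast markers summed to between 2.13 and 6.19 CPM. In Sox2-KD libraries the 5 primitive endoderm markers summed to 40.1 and 59.1 CPM, against 2.08 and 2.41 CPM in control. Of the 5, only 4 were detected in Sox2-KD replicate 2, and all 5 in Sox2-KD replicate 1 and in both control libraries. A sum does not show how much each marker contributed. The 5 trophectoderm markers summed to 59.2 and 102 CPM in Sox2-KD and to 34.5 and 94.7 CPM in hnRNPK-KD libraries, against 46.1 and 46.5 CPM in Cdk9-KD and 27.2 and 41.0 CPM in control. Whether cells of these types were present, and their part in the results below, was not tested. In bulk RNA fewer cells with a transcript and less of it per cell cannot be told apart. Of the targeted genes, Sox2 was at 68.0% and 60.1% of its control mean in the Sox2-KD libraries and Cdk9 at 61.4% and 44.7% in the Cdk9-KD libraries. Hnrnpk was at 62.7% of its control mean in hnRNPK-KD replicate 1 but at 103% in replicate 2 of that label, so that log2FC of the libraries labelled hnRNPK-KD are also given without replicate 2.

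All 9 genes were expressed in control E14 ESCs, at levels that differed by several fold. Levels of different genes were compared as RPKM, the CPM of a gene per kilobase of its merged exons. Larp7, whose product binds the 3′ end of 7SK RNA, had the highest level, at 57.0 ± 1.73 RPKM (SD, n = 2). Below it came the scaffold gene Aff1 at 28.7 ± 5.53, the kinase gene Cdk9 at 25.8 ± 3.13 and the other scaffold gene Aff4 at 20.5 ± 0.180 RPKM. Hexim1 at 18.4 ± 0.328, Ccnt2 at 17.4 ± 2.13 and Ccnt1 at 14.8 ± 0.803 RPKM were next. Mepce at 12.1 ± 2.03 and Ell at 8.78 ± 0.120 RPKM were the lowest. In this order the libraries of Aff1 and Cdk9 overlapped, as did those of Hexim1 and Ccnt2, while the libraries of every other pair of neighbours were separate. The median of 16492 tested genes was 3.93 RPKM, and the percentile of the 9 genes among them ran from 66.7 (Ell) to 95.1 (Larp7).

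**Figure D1:**
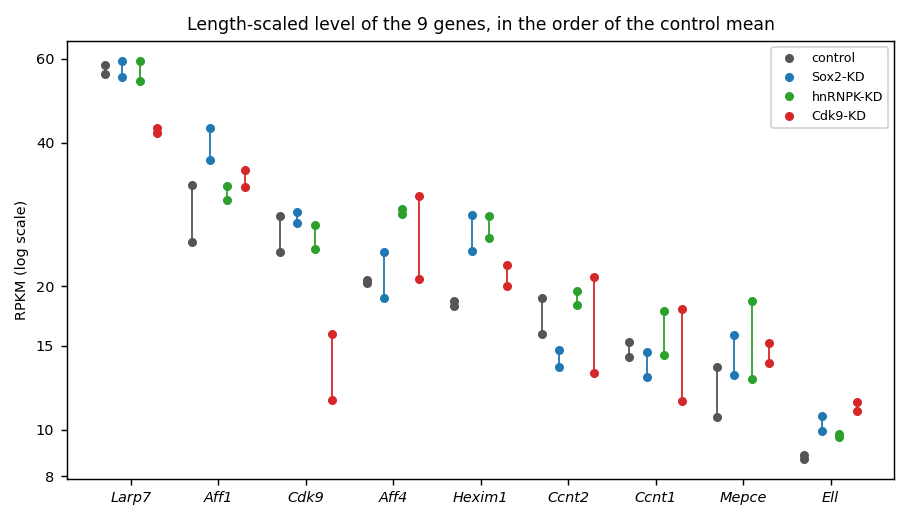
Length-scaled level (RPKM, log axis) of the 9 genes, ordered by the control mean, with 1 point per library and a line joining the 2 replicates of a group. Larp7 is highest in every group and Ell lowest, and Cdk9 lies at 13.7 RPKM in Cdk9-KD, against 25.8 RPKM in control.

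The order depends on the length used. With the length of the longest annotated transcript in place of merged exons, control levels were 33.4 RPKM for Cdk9, 18.3 for Ccnt1, 28.1 for Ccnt2, 63.6 for Larp7 and 27.3 for Aff4, and Ccnt2 moved from rank 6 to rank 4. Larp7 was first and Ell last by either length in all 4 groups. By merged exons, Cdk9 stood at rank 3 in control and Sox2-KD, at rank 5 in hnRNPK-KD and at rank 8 in Cdk9-KD. Hexim1 stood at rank 5 in control and at rank 4 in each of the 3 KD groups by merged exons. By the longest transcript, Hexim1 stood at rank 6 in control and hnRNPK-KD and at rank 5 in Sox2-KD and Cdk9-KD.

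Cdk9 (ENSMUSG00000009555.16, chr2:32705784-32713076, minus strand) encodes the kinase of P-TEFb. It was at 109 and 129 CPM in control replicates 1 and 2, at 125 and 132 CPM in Sox2-KD, at 110.3 and 124 CPM in hnRNPK-KD and at 73.1 and 53.2 CPM in Cdk9-KD. Both Cdk9-KD libraries lay below the other 6. The control libraries overlapped those of Sox2-KD and hnRNPK-KD. Both Sox2-KD libraries lay above both hnRNPK-KD libraries, an order whose share over all genes was not computed. The mean was 63.1 ± 14.1 CPM in Cdk9-KD (SD, n = 2), against 118.9 ± 14.4 CPM in control (SD, n = 2). Its log2 fold change (log2FC) in Cdk9-KD was -0.91 (standard error (SE) 0.18), and the Benjamini-Hochberg adjusted p over all 16504 genes was 0.0985 in edgeR's quasi-likelihood test. Differential expression (DE) required an adjusted p under 0.05 together with a log2FC beyond 0.6 in either direction, so Cdk9 was not called against control by this test. It was called by DESeq2 (adjusted p = 7.36e-04), by edgeR's likelihood ratio test (adjusted p = 9.70e-04) and by the quasi-likelihood test without Cdk9-KD replicate 1 (log2FC -1.19, adjusted p = 0.0459), which makes 3 of 16 alternatives. In 1 test of any difference among the 4 groups, an F test that 6.06% of all genes passed, Cdk9 alone of the 9 genes was called (adjusted p = 0.0209, quasi-likelihood test). Without Sox2-KD replicate 1, Sox2-KD replicate 2 or Cdk9-KD replicate 2 the adjusted p of this test was 0.0502, 0.0897 and 0.0883. Against control the log2FC of Cdk9 was 0.11 in Sox2-KD (SE 0.17) and -0.02 in hnRNPK-KD (SE 0.17), where it was -0.13 without hnRNPK-KD replicate 2. Between Sox2-KD and hnRNPK-KD the log2FC of Cdk9 was 0.14 (SE 0.17, adjusted p = 0.708 in edgeR's quasi-likelihood test).

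**Figure D2:**
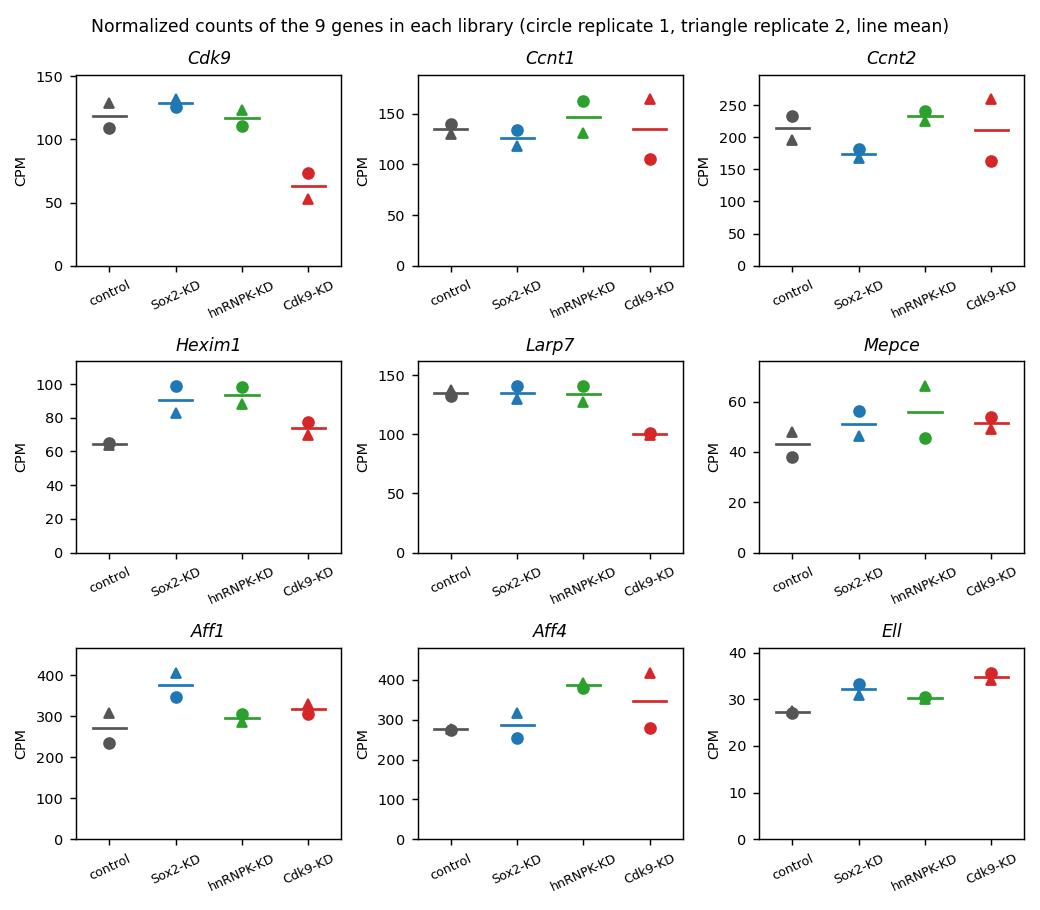
Normalized counts (CPM, linear axes from 0) of the 9 genes in each of the 8 libraries, with circles for replicate 1, triangles for replicate 2 and a line at the group mean. Cdk9 and Larp7 are lowest in both Cdk9-KD libraries, Hexim1 and Ell are above both control libraries in all 6 KD libraries, and Ccnt1, Ccnt2 and Aff4 differ most between the 2 Cdk9-KD libraries.

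The cyclin genes Ccnt1 and Ccnt2, whose products activate CDK9, followed no such pattern. Ccnt1 (ENSMUSG00000011960.12, chr15:98538689-98570923, minus strand) was at 140.3 and 129.9 CPM in control, 134 and 118 CPM in Sox2-KD, 163 and 131 CPM in hnRNPK-KD and 105 and 164 CPM in Cdk9-KD. Ccnt2 (ENSMUSG00000026349.14, chr1:127774164-127808061, plus strand) was at 233 and 196 CPM in control, 181 and 167 CPM in Sox2-KD, 241 and 226 CPM in hnRNPK-KD and 162 and 259 CPM in Cdk9-KD. The 2 Cdk9-KD libraries spanned all other libraries of both genes. In Cdk9-KD the log2FC was -0.01 (SE 0.20) for Ccnt1 and -0.03 (SE 0.20) for Ccnt2. In Sox2-KD it was -0.10 (SE 0.20) and -0.30 (SE 0.20), and in hnRNPK-KD it was 0.12 (SE 0.20) for both. Without hnRNPK-KD replicate 2 it was 0.24 for Ccnt1 and 0.14 for Ccnt2. Only Ccnt2 in Sox2-KD had groups that did not overlap, and its adjusted p was 0.460 in edgeR's quasi-likelihood test. An antisense gene, 9330020H09Rik, overlaps an exon of Ccnt1. It held 5 to 17 counts per library, and since the strand setting is not given, reads of the antisense gene and of Ccnt1 cannot be told apart there.

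Between the Cdk9-KD libraries, levels moved with the GC content and length of transcripts. Over 9710 genes with an average log2 CPM over 3, the median of replicate 2 minus replicate 1 (log2 CPM) was 0.32 in the quintile of lowest GC content and -0.19 in that of highest, and it was -0.15 in the quintile of shortest and 0.25 in that of longest transcripts. In the lowest GC quintile of the other groups the median was -0.06 (control), -0.16 (Sox2-KD) and -0.18 (hnRNPK-KD). Ccnt2 differed by 0.67 between the Cdk9-KD libraries, against a median of 0.46 over the 528 genes of its GC and length quintiles. For Ccnt1 the difference was 0.64 and for Aff4 0.58, against a median of 0.33 over the 474 genes of the quintiles both belong to. Cdk9 differed by -0.46, against 0.02 over the 405 genes of its quintiles. The part of GC content and length in the values of Ccnt1, Ccnt2 and Aff4 was not tested.

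**Figure D3:**
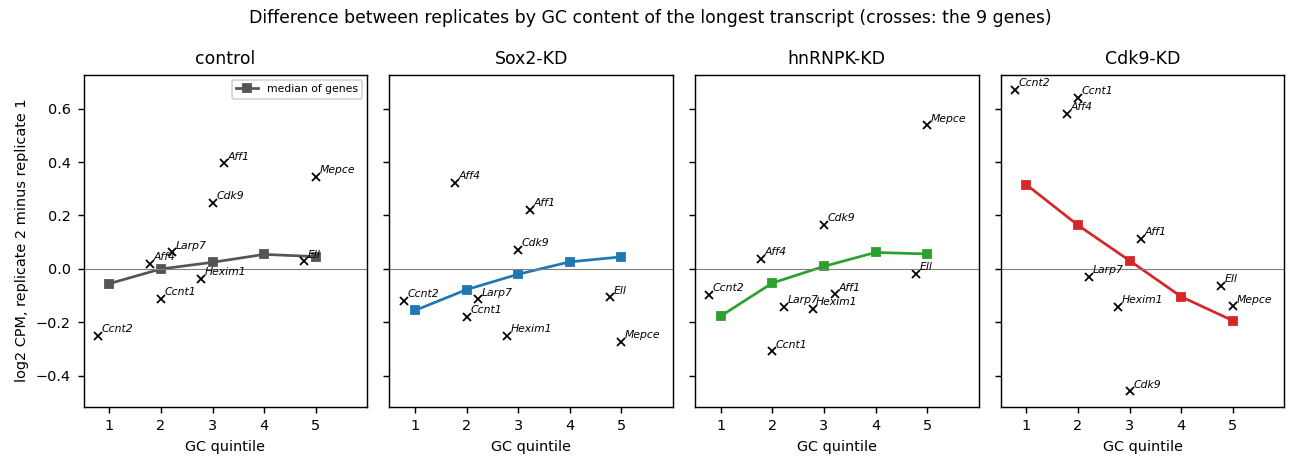
Difference between replicates (log2 CPM, replicate 2 minus replicate 1) in each group against the quintile of GC content of the longest transcript, with squares for the median of the genes in a quintile and crosses, shifted sideways within their quintile, for the 9 genes. In Cdk9-KD the medians run from 0.32 in the lowest to -0.19 in the highest quintile. There Ccnt1, Ccnt2, Aff1, Aff4, Mepce and Ell lie above the median of their quintile, and Cdk9, Hexim1 and Larp7 below.

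Hexim1 (ENSMUSG00000048878.6, chr11:103116231-103119725, plus strand) encodes the protein that inhibits P-TEFb on 7SK RNA, and it is a gene of 1 exon. Hexim1 was at 65.2 and 63.6 CPM in control, 98.6 and 82.9 CPM in Sox2-KD, 98.1 and 88.4 CPM in hnRNPK-KD and 77.3 and 70.0 CPM in Cdk9-KD. All 6 KD libraries lay above both control libraries, the Cdk9-KD pair nearest to them. The log2FC was 0.50 in Sox2-KD (SE 0.15, adjusted p = 0.0942), 0.53 in hnRNPK-KD (SE 0.15, adjusted p = 0.438) and 0.19 in Cdk9-KD (SE 0.15, adjusted p = 0.705), all by edgeR's quasi-likelihood test, and no comparison passed the threshold. The hnRNPK-KD value was 0.58 without replicate 2, the library in which Hnrnpk was not lower, and 0.45 without replicate 1. Over 16 alternatives the log2FC in Sox2-KD lay between 0.35 and 0.61, with adjusted p from 0.0528 to 0.381. Among the 4 groups together its adjusted p was 0.120, and 0.0433 with the likelihood ratio test.

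The bases in front of Hexim1 are shown because, of the 8 members with a promoter in the RefSeq table used, Hexim1 is the one with a TATA-type motif. Capitals mark a GC box (GGGCGG) and the motif TATATAA in the 156 bases of GRCm38.p6 just before the annotated start of the gene, chr11:103116075-103116230 on the plus strand.
Hexim1 upstream: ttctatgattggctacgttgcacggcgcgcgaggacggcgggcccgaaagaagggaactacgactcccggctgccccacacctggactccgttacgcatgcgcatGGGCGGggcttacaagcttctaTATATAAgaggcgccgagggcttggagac
In windows of 300 bases around the start, searched on both strands, TATATAA occurred in 1 of the 8 members and in 3.24% of 32851 mouse promoters. Members were counted as genes, with a motif in any of their promoters, while the percentages are over promoters. GGGCGG occurred in 7 of the 8 (all but Aff4) and in 35.7% of all. The SOX-type motifs CTTTGT and ATTGTT occurred in 0 of the 8 and in 18.7% and 10.7% of all. Mepce had no match in that table. A motif in a window is a description of its letters only.

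Larp7 (ENSMUSG00000027968.11, chr3:127536714-127553349, minus strand), which encodes the protein that stabilizes 7SK RNA, had its lowest values in Cdk9-KD. It was at 132 and 138 CPM in control, 140.5 and 129.8 CPM in Sox2-KD, 140.5 and 127 CPM in hnRNPK-KD and 101 and 99.2 CPM in Cdk9-KD. As with Cdk9, the gene targeted in that group, both Cdk9-KD libraries lay below the other 6. This order was shown by 3.73% of all genes and by 2 of the 9, Larp7 and the targeted gene itself. The log2FC was -0.43 (SE 0.13, unadjusted p = 0.00910, adjusted p = 0.313 in edgeR's quasi-likelihood test) in Cdk9-KD, below the fold threshold, and it lay between -0.50 and -0.41 over 16 alternatives with adjusted p from 0.187 to 0.798. In Sox2-KD and hnRNPK-KD it was 0.00 and -0.01 (SE 0.13 in both), and 0.03 in hnRNPK-KD without replicate 2. The Mir302b, Mir302c, Mir302a, Mir302d and Mir367 genes, a miRNA cluster typical of pluripotent cells, lie on the opposite strand in an intron of Larp7 and held 0 to 3 counts each per library, which does not measure the mature miRNAs.

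Mepce (ENSMUSG00000029726.16, chr5:137781906-137787655, minus strand), the gene of the enzyme that caps 7SK RNA, was at 37.8 and 48.1 CPM in control, 56.1 and 46.4 CPM in Sox2-KD, 45.5 and 66.1 CPM in hnRNPK-KD and 54.0 and 49.0 CPM in Cdk9-KD. The libraries of Sox2-KD and hnRNPK-KD overlapped those of control. Its log2FC of 0.25 in Sox2-KD, 0.38 in hnRNPK-KD and 0.26 in Cdk9-KD (SE 0.21 in each) did not pass the threshold. The value in hnRNPK-KD was 0.06 without replicate 2 and 0.61 without replicate 1 of that group. Without control replicate 1 the log2FC was 0.08 in Sox2-KD and 0.06 in Cdk9-KD, and without control replicate 2 it was 0.43 and 0.42. The 7SK RNA itself (Rn7sk) held 0 to 10 counts per library, too few to test, in libraries made from polyadenylated RNA.

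The level of the inhibitor gene relative to the kinase gene, Hexim1 to Cdk9 in RPKM, was 0.791 and 0.650 in control. It was 1.04 and 0.831 in Sox2-KD, 1.17 and 0.944 in hnRNPK-KD and 1.40 and 1.74 in Cdk9-KD. All 6 KD libraries lay above both control libraries, as they did for Hexim1 alone. The share of gene pairs with this order was not computed. In Cdk9-KD the denominator is the targeted gene, and Hexim1 itself was lower there, at 77.3 and 70.0 CPM, than in the libraries of the other 2 KD groups. The ratio of the cyclin gene Ccnt1 to Cdk9 was 0.650 and 0.506 in control, 0.537 and 0.451 in Sox2-KD, 0.742 and 0.535 in hnRNPK-KD and 0.725 and 1.55 in Cdk9-KD, where 1 of the 2 libraries lay above all others. The ratios were not tested.

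Of the scaffold genes of the super elongation complex, Aff1 was highest in Sox2-KD and Aff4 in hnRNPK-KD by group mean. Aff1 (ENSMUSG00000029313.18, chr5:103692374-103855322, plus strand) was at 235 and 309 CPM in control, 348 and 405 CPM in Sox2-KD, 306 and 287 CPM in hnRNPK-KD and 306 and 331 CPM in Cdk9-KD. Only the Sox2-KD libraries were separate from control. The log2FC was 0.47 (SE 0.16, unadjusted p = 0.0150, adjusted p = 0.138 by edgeR's quasi-likelihood fit) in Sox2-KD, and control replicates 1 and 2, left out in turn, put it at 0.27 and 0.67. In hnRNPK-KD it was 0.13 (SE 0.16), and 0.15 without replicate 2 of that group. In Cdk9-KD it was 0.23 (SE 0.16), and 0.01 without control replicate 1 and 0.41 without control replicate 2.

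Aff4 (ENSMUSG00000049470.13, chr11:53350833-53421830, plus strand) was at 274 and 277 CPM in control, 254 and 318 CPM in Sox2-KD, 380.4 and 391 CPM in hnRNPK-KD and 279 and 416 CPM in Cdk9-KD. The hnRNPK-KD pair was above both control libraries and both Sox2-KD libraries. The share of all genes that lay above Sox2-KD in this way was not computed. Its log2FC of 0.49 in hnRNPK-KD (SE 0.19, unadjusted p = 0.0279, adjusted p = 0.562 in edgeR's quasi-likelihood test) was 0.44 without replicate 2 (unadjusted p = 0.0961) and 0.50 without replicate 1 of that group. In Cdk9-KD the log2FC of 0.34 (SE 0.19) rested on replicate 2, and without that library it was 0.02.

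Ell (ENSMUSG00000070002.7, chr8:70539457-70592858, plus strand), which encodes an elongation factor that suppresses pausing of the polymerase, was the lowest of the 9 genes. It was at 27.0 and 27.6 CPM in control, 33.3 and 30.9 CPM in Sox2-KD, 30.4 and 30.03 CPM in hnRNPK-KD and 35.6 and 34.1 CPM in Cdk9-KD. All 6 KD libraries lay above both control libraries. Its log2FC was 0.23, 0.15 and 0.35 (SE 0.16 in each), the last with an unadjusted p of 0.0460 and an adjusted p of 0.469 in edgeR's quasi-likelihood test. Without hnRNPK-KD replicate 2 its log2FC in that group was 0.13. The 362 genes of the GC and length quintiles of Ell, to which Mepce also belongs, had a median log2FC of 0.15 in Sox2-KD, 0.04 in hnRNPK-KD and 0.14 in Cdk9-KD, and the part of GC content and length in the values of both genes was not tested.

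**Figure D4:**
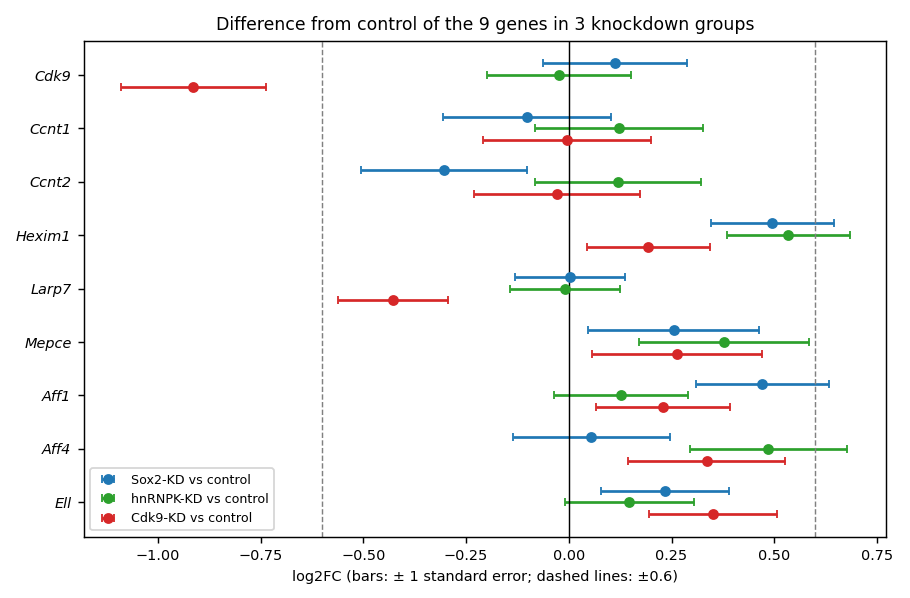
Difference (log2FC) of the 9 genes in the 3 KD groups from the same 2 control libraries, with bars of 1 standard error on each side and dashed lines at the fold threshold of 0.6 in either direction. Cdk9 in Cdk9-KD, at -0.91, is the only value beyond a dashed line.

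Against control, 0 of the 9 genes were DE in Sox2-KD, where 4.32% of all genes were, 0 in hnRNPK-KD (0% of all genes) and 0 in Cdk9-KD (0.139% of all genes), in edgeR's quasi-likelihood test. DESeq2 called 0, 0 and 1 of them, and 1039, 83 and 226 of all genes. The likelihood ratio test called 0, 0 and 1 of them, and 1350, 87 and 279 of all genes. At an unadjusted p under 0.05, Hexim1 and Aff1 were higher in Sox2-KD (11.0% of all genes) and none was lower (8.25%). In hnRNPK-KD, Hexim1 and Aff4 were higher at that p (3.48% of all genes) and none was lower (4.55%). In Cdk9-KD, Ell was higher (5.49% of all genes), and Larp7 and the targeted gene Cdk9 were lower (4.93%).

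Libraries that did not overlap with control gave a similar account. In Sox2-KD, 3 of the 9 genes (Hexim1, Aff1 and Ell) had both libraries above both control libraries, as did 28.2% of all genes, and Ccnt2 had both below, as did 25.2%. In hnRNPK-KD the 3 above were Hexim1, Aff4 and Ell (20.4% of all genes) and 0 were below (18.7%). In Cdk9-KD the 4 above were Hexim1, Mepce, Aff4 and Ell (21.2% of all genes). The 2 below were Larp7 and the targeted gene Cdk9 (18.0%). Hexim1 and Ell, 2 of the 9, were above control in all 6 KD libraries, as were 5.71% of all genes, and 0 of the 9 were below in all 6 (3.57%). The 3 comparisons share their control libraries, so that such an order is not 3 separate observations. The libraries counted here include hnRNPK-KD replicate 2, in which Hnrnpk was at 103% of its control mean. Over the 9 genes the median log2FC was 0.11 in Sox2-KD, 0.13 in hnRNPK-KD and 0.19 in Cdk9-KD, and that of all genes was 0.02 in each.

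Compared directly with each other, Sox2-KD and Cdk9-KD differed in Cdk9, the gene that the shRNAs of Cdk9-KD target. It was 1.03 higher on the log2 scale in Sox2-KD than in Cdk9-KD (SE 0.18, adjusted p = 0.00734 in edgeR's quasi-likelihood test), the only one of the 9 genes called in this comparison, in which 7.33% of all genes were. Without Sox2-KD replicate 2 the log2FC was 0.99 and the adjusted p 0.0577. Larp7 was 0.43 higher in Sox2-KD than in Cdk9-KD (SE 0.13, adjusted p = 0.0819) and was, with Cdk9, 1 of 2 members under an unadjusted p of 0.05 (21.7% of all genes). Between Cdk9-KD and hnRNPK-KD, 0 of the 9 and 0% of all genes were DE, while Cdk9 (log2FC -0.89), Larp7 (-0.42) and Hexim1 (-0.34) were under an unadjusted p of 0.05 (5.71% of all genes). Cdk9 had an adjusted p of 0.340 there in edgeR's quasi-likelihood test and was called by DESeq2 (adjusted p = 0.00672) and by the likelihood ratio test (adjusted p = 0.00614). Without hnRNPK-KD replicate 2 the log2FC was -0.82 for Cdk9, -0.50 for Larp7 and -0.42 for Hexim1, whose unadjusted p was then 0.0527 in edgeR's quasi-likelihood test. Between Sox2-KD and hnRNPK-KD, 0 of the 9 were DE (5.90% of all genes), 0 by DESeq2 too, and Aff4, lower by a log2FC of -0.43 in Sox2-KD, was the one with an unadjusted p under 0.05 (21.3%). Without hnRNPK-KD replicate 2 its log2FC was -0.40, with an unadjusted p of 0.128 in edgeR's quasi-likelihood test. Hexim1, higher than in control in both groups, differed between them by -0.04 (SE 0.15, edgeR's quasi-likelihood test), and by -0.10 without hnRNPK-KD replicate 2.

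Of 30 further genes of the pathway, 27 passed the filter, and the 3 that did not were Rn7sk, Aff2 (0 to 3 counts per library) and Aff3 (6 to 13 counts). The list holds Hexim2, the RNA-binding proteins that take over 7SK RNA when P-TEFb is released, other subunits of the super and little elongation complexes, and P-TEFb's substrates, the polymerase, DSIF and NELF. Against control, 0 of the 27 were DE in any KD group by edgeR's quasi-likelihood test, and 0 by DESeq2 and the likelihood ratio test. At an unadjusted p under 0.05, 2 of the 27 were lower in Sox2-KD, Ddx21 and Ell3 (8.25% of all genes), 4 were higher in hnRNPK-KD, Hnrnpa2b1, Hnrnpr, Polr2a and Supt5 (3.48% of all genes), and 1 was higher in Cdk9-KD, Supt5 (5.49% of all genes). Without hnRNPK-KD replicate 2, the unadjusted p of those 4 genes in that group lay between 0.0890 and 0.138 in edgeR's quasi-likelihood test. Supt5, the large subunit of DSIF, was at 178 and 196 CPM in control and 234 and 225 CPM in Sox2-KD. It was at 232 and 244 CPM in hnRNPK-KD and 257 and 229 CPM in Cdk9-KD. Its log2FC in these KD groups was 0.30, 0.35 and 0.38 (SE 0.14 in each). The adjusted p was 0.266, 0.558 and 0.371 in edgeR's quasi-likelihood test. Without hnRNPK-KD replicate 2 its log2FC in hnRNPK-KD was 0.29. Hexim2, the paralogue of Hexim1, was at 6.87 and 7.79 CPM in control and between 6.51 and 8.12 CPM in the 6 KD libraries. In a comparison without control, Hnrnpa2b1, the gene of an hnRNP protein that binds 7SK RNA, was lower in Sox2-KD than in hnRNPK-KD (log2FC -0.61, SE 0.15, adjusted p = 0.0424 in edgeR's quasi-likelihood test), the only listed gene called between KD groups by this test, in a comparison that called 5.90% of all genes. Without hnRNPK-KD replicate 2 its log2FC was -0.61 and its adjusted p 0.191. Between Sox2-KD and hnRNPK-KD, DESeq2 and the likelihood ratio test each called 2 listed genes, Hnrnpa2b1 and Mllt3, a partner of the AFF scaffolds. The share of all genes that these tests called in that comparison was not computed. Mllt3 had a log2FC of -0.99 (SE 0.28, adjusted p = 0.0629 in edgeR's quasi-likelihood test), and of -1.01 without hnRNPK-KD replicate 2. The listed genes named here, beyond the 3 under the filter, are named after their values were seen.

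The genes whose pattern over the 8 libraries was most like that of Cdk9, among 9710 genes with an average log2 CPM over 3, were Xlr4c (Pearson r = 0.975 of log2 CPM), AI662270 (0.961) and Gm13231 (0.955). Xlr4c was at 10.5 and 9.91 CPM in control and at 2.75 and 1.72 CPM in Cdk9-KD. It belongs to a family of near-identical copies and Gm13231 is annotated as a processed pseudogene, so that their counts are uncertain. For Hexim1 the most alike were Tm7sf2 (0.951), Ubxn4 (0.942) and Pfkfb2 (0.931). Among the 9 genes themselves, Cdk9 and Larp7 (r = 0.912) and Ccnt1 and Ccnt2 (r = 0.898) were the closest pairs and Larp7 and Ell (r = -0.664) the most opposed. Cdk9 and Larp7 were both lowest in the Cdk9-KD libraries, where Cdk9 is the targeted gene. Ccnt1 and Ccnt2 each had their lowest and highest values in the Cdk9-KD libraries. The r of either pair without those libraries was not computed. All these values of r are descriptions over 8 libraries that share groups and scaling.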

How the data were processed

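Reads were trimmed with Trimmomatic and aligned with STAR (mm10, GENCODE vM23) by the authors, who deposited unnormalized counts of each gene, 1 column per library. The submitters' processing notes name STAR 2.7.9a and featureCounts 2.0.1. The strand setting and the treatment of shared reads are not given in the sources used here. The counts were analysed with edgeR 4.0.16 in R 4.3.3 (filterByExpr with a minimum count of 10 and a minimum total of 15, TMM, all 8 libraries in 1 fit with a group term, quasi-likelihood test, Benjamini-Hochberg adjustment over 16504 genes). The thresholds for DE are those in the study's methods. An SE is the log2FC divided by the square root of the F statistic. The biological coefficient of variation was 0.186. CPM are TMM-normalized. Libraries held at least 16709201 counts, and the counts of the 9 genes began at 480 (Ell). Symbols, exon lengths and coordinates came from GENCODE vM21 (GRCm38), which named 55154 of 55335 genes, and promoters from RefSeq.

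The rule for named genes gave the 9 members, the targeted genes, listed pathway genes called against control (there were none) or under the filter, and the 3 genes most like Cdk9 and Hexim1. Other listed genes are named outside this rule, after their values were seen. Members and lists were chosen with earlier results of these data known. Tests were tried on simulated data. The alternatives were DESeq2 1.42.0, other scalings, filters and tests, fits of only the 4 libraries compared, the replicate number as a block, and leaving out each library. Splicing was not analysed here. Figures were drawn with matplotlib 3.10.9.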

Additional observations from a re-analysis of the deposited data

How the results depend on the processing

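The number of members DE in Cdk9-KD against control was 0, and 1 (Cdk9) with DESeq2 and with the likelihood ratio test. Leaving out libraries gave 0 to 1 for it, with 1 when Cdk9-KD replicate 1 was left out. Against hnRNPK-KD the number was 0, and 1 (Cdk9) with the same 2 tests. Between Sox2-KD and Cdk9-KD it was 1, and leaving out libraries gave 0 to 1, with 0 without Sox2-KD replicate 2. The F test called 1 member, 2 (Cdk9 and Hexim1) with the likelihood ratio test, and 0 to 1 without single libraries. Small differences changed sign. The log2FC of Larp7 in Sox2-KD was 0.0030, and -0.013 with DESeq2, -0.0035 with RLE size factors, -0.033 with no filter and -0.017 with only the 4 libraries compared. Without single libraries it lay between -0.065 and 0.056, that of Larp7 in hnRNPK-KD between -0.092 and 0.035, and that of Cdk9 between -0.024 and 0.23 in Sox2-KD and between -0.16 and 0.094 in hnRNPK-KD. The log2FC in hnRNPK-KD lay between -0.080 and 0.33 for Aff1, between -0.051 and 0.24 for Ccnt1 and between -0.013 and 0.23 for Ccnt2. In Cdk9-KD it lay between -0.36 and 0.25 for Ccnt1 and between -0.40 and 0.24 for Ccnt2, and in Sox2-KD between -0.12 and 0.20 for Aff4. The cause was not tested. Of all genes, 713 were DE in Sox2-KD, 0 in hnRNPK-KD and 23 in Cdk9-KD, 83 and 226 with DESeq2 in hnRNPK-KD and Cdk9-KD, 1350, 87 and 279 with the likelihood ratio test, and 1 with no filter in hnRNPK-KD. Leaving out libraries gave 144 to 840, 0 to 1 and 0 to 33. Other scalings moved the median of all genes by at most 0.068 (log2).

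Whether libraries with the same replicate number were handled together is not given in the sources used here. Deviations of same-numbered libraries correlated between -0.223 (Sox2-KD with Cdk9-KD) and 0.210 (control with Sox2-KD). With 2 libraries per group these correlations cannot decide it. With the replicate block, 15 genes were DE in Cdk9-KD against control, none of them a member, and no call of a member changed. Crossing the numbers of Cdk9-KD, a choice made after the data were seen, left 1 member DE between Sox2-KD and Cdk9-KD. The lowest count of a member was 480 (Ell in control replicate 1), and the number of libraries per group, 2, limits the precision.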
